A study of Mus musculus with 10 samples.

Results

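The nuclear-encoded genes of the respiratory chain and ATP synthase were read out by RNA sequencing in mouse mammary epithelial cells of 4 genotypes. They were taken by symbol from the 16290 genes of the deposited table (Nduf subunit names, Sdha to Sdhd, Uqcr, Cox4 to Cox8 and Atp5 names), and a gene was kept if its normalised read count reached 10 in at least 2 libraries. The rule matched 80 genes and all 80 passed the filter: 35 of complex I, 4 of complex II, 8 of complex III, 16 of complex IV and 17 of complex V. All mice were of the FVB strain and all 10 libraries carried NIC, a genotype that the labels do not spell out. The groups were NIC alone (2 libraries), NIC-Prmt1 (3 libraries), NIC-Carm1 (3 libraries) and NIC-Prmt6 (2 libraries), where Prmt1, Carm1 and Prmt6 encode protein arginine methyltransferases that were overexpressed. The cells came from the #3 and #4 mammary glands by enzymatic digestion and pulse centrifugation. The age of the mice, the promoter and cell type that drove each transgene, and whether glands were pooled could not be read from the labels. Nothing says that replicates came from separate animals, so p-values measure the spread between these samples, which may be technical.

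Complex I takes electrons from NADH and complex II takes them from succinate, as a step of the tricarboxylic acid cycle. Complex III passes them to cytochrome c and complex IV passes them on to oxygen, while complexes I, III and IV pump protons that drive complex V, the ATP synthase. Complex II is built from nuclear genes alone, whereas the other complexes join nuclear-encoded and mitochondrially encoded subunits; the mitochondrially encoded ones were not analysed here. Mammary epithelium is known for a high demand for ATP when it makes milk. By symbol, the Atp5 names also took in Atp5s and Atp5sl, which are not core subunits of ATP synthase, and the Cox names took in Cox7a2l, a factor of supercomplex assembly. Ndufa4 carries a complex I name but is now placed in complex IV, and Ndufab1 of complex I and Cyc1 of complex III lay outside the symbol rule.

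Between 21589274 and 30260921 reads were recovered per library, so counting error was small for all but the least expressed of the 80 genes. The normalised counts of Prmt1 were 2675 and 3077 in NIC, 2963, 2702 and 3258 in NIC-Prmt1, 2916, 2362 and 2516 in NIC-Carm1, and 2669.5 and 2720.5 in NIC-Prmt6. These ranges overlapped, so Prmt1 does not tell the libraries labelled NIC-Prmt1 from NIC (0.05 ± 0.12 (adjusted p = 0.784) on the log2 scale, limma). Carm1 was higher than in NIC in all of the other 3 groups, with 1556 and 1567 in NIC and 2479, 2324 and 2146 in NIC-Carm1, and so does not single out NIC-Carm1. Prmt6 was 387 and 451 in NIC and 873 and 909 in NIC-Prmt6, above every other library. The labels do not say whether the mouse gene models catch the transcripts of each transgene, and every direction below is between groups as labelled. In 2 same-group pairs the recovered reads were close to identical: chi-square per degree of freedom was 2.73 for NIC-Carm1 replicates 2 and 3 and 2.46 for the NIC-Prmt6 pair, against 29.2 to 109 for the other 6 pairs. The spread within these groups may therefore be understated. Counts with each such pair averaged to 1 sample are given for the 80 genes together. Counts by complex, by role, by cell type marker and by list are from the main fit only, unless another setting is named.

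In the libraries labelled NIC-Prmt6, 64 of the 76 genes of complexes I, III, IV and V had lower mRNA levels than in NIC, and in NIC-Prmt1 37 of the 76 did. Of the 4 complex II genes, 1 was lower in NIC-Prmt6 and 0 in NIC-Prmt1 (limma). In NIC-Prmt1 the count was 0 also by edgeR, by DESeq2 and at an unadjusted p under 0.05. With 4 genes, these counts cannot be told from the shares of all tested genes that were lower, 17.8% in NIC-Prmt6 and 14.4% in NIC-Prmt1. The complex II genes had median transcript lengths of 1142 to 2900 bases, while 53 of the 79 chain genes with a length were under 1 kb. The part of length in this contrast was not tested. In NIC-Prmt6, 65 of the 80 genes were lower and 2 were higher (limma, adjusted p under 0.05), where 17.8% of all 15694 tested genes were lower and 19.0% higher. In NIC-Prmt1, 37 were lower and 2 higher, where 14.4% of tested genes were lower and 15.2% higher. In NIC-Carm1, 7 were lower and 1 was higher, where 9.36% of tested genes were lower and 6.65% higher. The median log2 fold change over the 80 genes was -0.64 in NIC-Prmt6, -0.37 in NIC-Prmt1 and -0.25 in NIC-Carm1, each against NIC, while the median over all tested genes lay between -0.01 and 0.00. These comparisons share the same 2 NIC libraries, so they are not independent of each other. In bulk RNA of this kind, fewer cells of a type and less RNA per cell cannot be told apart.

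The counts of called genes depended on single libraries more than the medians did. Without NIC replicate 2, the NIC-Prmt1 comparison called 1 gene lower and 1 higher. The same comparison gave 9 calls when only its 2 groups were fitted, and 13 when the near-identical pairs were averaged. For NIC-Prmt6 the 67 calls became 37 without NIC replicate 2, 41 without NIC-Prmt6 replicate 1, 43 without NIC-Prmt6 replicate 2 and 21 once the near-identical pairs had been averaged. The median of the 80 genes stayed below 0 in all 21 other settings of each comparison with NIC, between -0.73 and -0.55 for NIC-Prmt6 and between -0.49 and -0.25 for NIC-Prmt1.

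**Figure D1:**
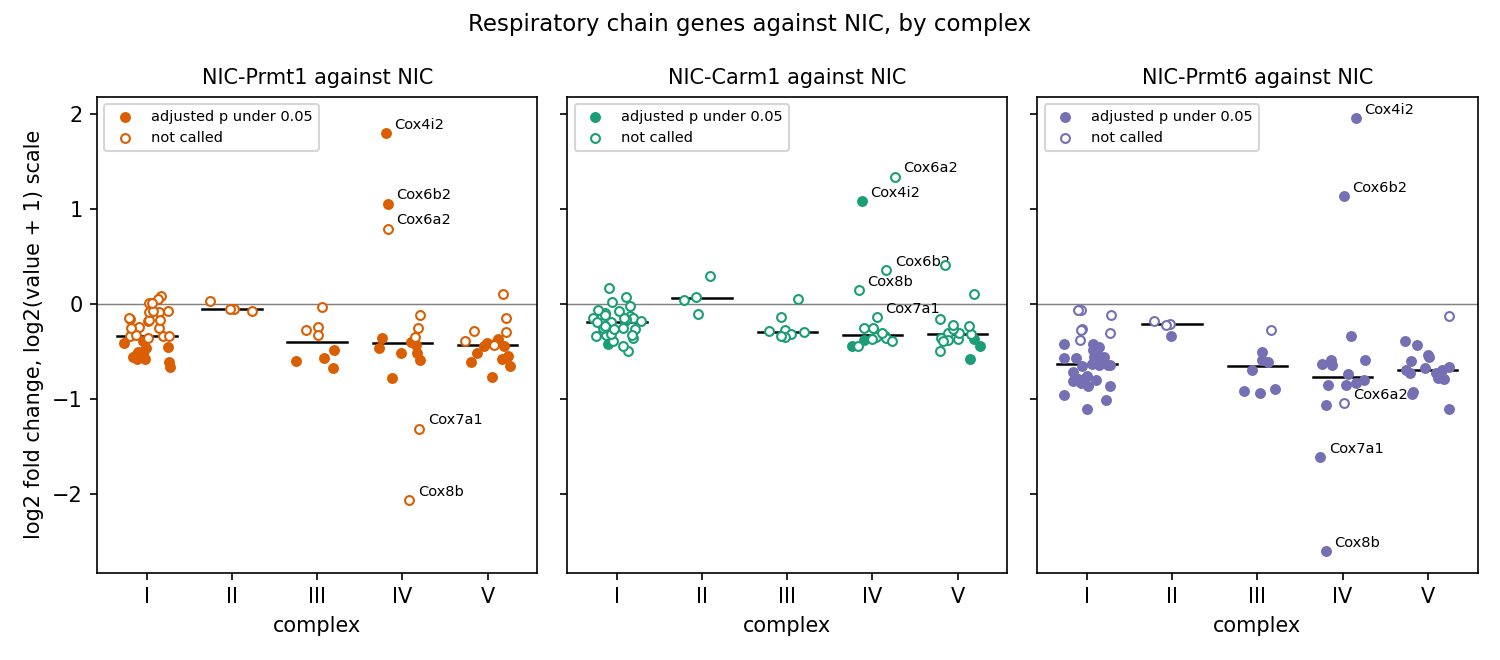
Log2 fold change of each of the 80 genes against NIC on the log2(value + 1) scale (vertical axis), by complex (horizontal axis), in NIC-Prmt1, NIC-Carm1 and NIC-Prmt6. Filled points passed an adjusted p of 0.05 and black lines mark the median of a complex: most points lie below 0 in NIC-Prmt6, complex II lies near 0, and the tissue-restricted isoforms Cox4i2 and Cox6b2 lie above 0.

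Luminal epithelial markers were found in every library, at 1076 normalised counts or more for each of the 10 genes. Markers of basal and myoepithelial cells and of cell types outside the epithelium differed between the same groups. None of the luminal, pericyte, endothelial or fibroblast markers was at 0 in any library. The 6 pericyte markers were all higher in NIC-Prmt1 and in NIC-Prmt6, with a summed level of 347 to 372 CPM (reads per 1000000 reads of the library) in NIC, 790.5 to 1214 in NIC-Prmt1, 511 to 686 in NIC-Carm1 and 1075 to 1115 in NIC-Prmt6. All 8 endothelial markers were higher in both groups as well, with 1098 to 1342 CPM in NIC, 2313 to 3324 in NIC-Prmt1 and 2937 to 2948 in NIC-Prmt6. Of 8 fibroblast markers, 6 were higher in NIC-Prmt1 and 8 in NIC-Prmt6. Of 9 basal and myoepithelial markers, 8 were higher in NIC-Prmt1 and 2 in NIC-Prmt6, with 1432 to 1719.7 CPM in NIC, 3293 to 5923 in NIC-Prmt1, 1732 to 1866 in NIC-Carm1 and 2073 to 2078 in NIC-Prmt6. Of 7 macrophage markers, 5 were higher in NIC-Prmt6 and 2 in each of the other groups, with 406 to 469 CPM in NIC, 352 to 616 in NIC-Prmt1, 749 to 809 in NIC-Carm1 and 781 to 800.1 in NIC-Prmt6. The 8 adipocyte markers summed to 489 to 601 CPM in NIC and 876 to 1236 in NIC-Prmt1. In NIC-Carm1 they summed to 654 to 735 and in NIC-Prmt6 to 1363 to 1392. Of the 8, 1 was called higher in NIC-Prmt1, 1 higher in NIC-Prmt6 and 1 lower in NIC-Carm1. Their median log2 fold change was -0.43 in NIC-Prmt1 and -0.78 in NIC-Carm1, although the sums there were higher, and 1.70 in NIC-Prmt6. Of 7 milk protein genes, 4 were lower in NIC-Prmt6 and 1 in NIC-Prmt1, with 5755 to 5767 CPM in NIC, 1848 to 3931 in NIC-Prmt1 and 1157 to 1188 in NIC-Prmt6. The 10 luminal epithelial markers summed to 9446 to 11537 CPM in NIC, 6775 to 9386 in NIC-Prmt1, 6081 to 7291 in NIC-Carm1 and 6135 to 6168 in NIC-Prmt6. Of these 10 genes, 6 were lower in NIC-Prmt6, 6 were lower in NIC-Carm1, and in NIC-Prmt1 3 were lower and 3 higher. Of all tested genes, 19.0% were higher and 17.8% lower in NIC-Prmt6, and 15.2% and 14.4% in NIC-Prmt1. In NIC-Carm1 6.65% were higher and 9.36% lower. The basal and myoepithelial count in NIC-Prmt6, the milk count in NIC-Prmt1 and the adipocyte counts were near these shares. The part of cell makeup in the lower chain levels was not tested.

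The chain genes are known targets of NRF1, of GABPA (also called NRF2), which binds the ETS motif, and of YY1, so their promoters are shown for 1 gene of each complex with a match. Promoters of 300 bases (250 before and 50 after the start, RefSeq, GRCm38.p6) were matched for 67 of the 80 genes and searched on both strands. Matches were counted for each motif on its own, also where they overlap another. While 1 promoter was taken for each chain gene, the set of all promoters was not limited to the 15694 tested genes. The NRF1 motif (the capital letters in the Atp5g2 line) was found in 7.46% of the 67 promoters and in 0.971% of all 32851 promoters of that length. The ETS motif CCGGAAG was found in 22.4% against 8.86%, the YY1 motif AAGATGGCG in 10.4% against 1.40%, and any of the 3 in 37.3% against 10.8%. The 100 bases before the start are given 5′ to 3′ on the gene's strand, with the match in capitals. It reads CTTCCGG where the ETS motif lies on the other strand. The genes are Ndufb7 of complex I (chr8:83566658-83566757 on the plus strand), Sdhd of complex II (chr9:50603850-50603949 on the minus strand), Uqcr11 of complex III (chr10:80406822-80406921 on the minus strand), Cox6b1 of complex IV (chr7:30626115-30626214 on the minus strand) and Atp5g2 of complex V (chr15:102671048-102671147 on the minus strand).
Ndufb7, ETS: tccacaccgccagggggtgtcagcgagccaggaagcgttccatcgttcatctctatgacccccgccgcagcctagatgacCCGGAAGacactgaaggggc
Sdhd, ETS: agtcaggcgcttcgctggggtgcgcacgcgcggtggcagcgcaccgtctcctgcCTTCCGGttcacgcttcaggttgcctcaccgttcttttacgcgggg
Uqcr11, ETS: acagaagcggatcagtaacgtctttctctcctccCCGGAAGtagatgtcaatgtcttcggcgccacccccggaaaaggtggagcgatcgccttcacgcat
Cox6b1, ETS: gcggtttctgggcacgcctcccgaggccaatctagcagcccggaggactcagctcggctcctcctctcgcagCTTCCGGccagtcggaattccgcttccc
Atp5g2, NRF1: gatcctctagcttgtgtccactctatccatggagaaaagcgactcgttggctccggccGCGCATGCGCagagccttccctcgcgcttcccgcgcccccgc
The promoter of Sdhd, which was not called against NIC in any group, held the same ETS letters as that of Uqcr11, which was lower in NIC-Prmt1 and NIC-Prmt6. Over the 67 genes, the median log2 fold change in NIC-Prmt6 was -0.67 for the 15 with the ETS motif and -0.64 for the 52 without it. For the NRF1 motif it was -0.59 with (5 genes) and -0.65 without (62 genes), and for YY1 -0.59 with (7 genes) and -0.66 without (60 genes). A match is a stretch of letters and not a measured binding site.

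Complex I had 28 of 35 genes lower in NIC-Prmt6 (median -0.64) and 14 lower in NIC-Prmt1 (median -0.33). None was higher in either comparison (limma; also none at an unadjusted p under 0.05 and none by edgeR or DESeq2). Its 7 core subunits, which carry the flavin, the iron-sulfur clusters and the quinone site, included 4 that fell in NIC-Prmt6 (median -0.49) and 0 in NIC-Prmt1 (median -0.15; limma, with 2 lower at an unadjusted p under 0.05 and 0 by edgeR and by DESeq2). Of the 28 accessory subunits, which surround and stabilise the core, 24 fell in NIC-Prmt6 (median -0.65) and 14 in NIC-Prmt1 (median -0.36). Of all tested genes, 17.8% were lower in NIC-Prmt6 and 14.4% in NIC-Prmt1, and 0 of 7 core genes cannot be told from the latter share. The difference between core and accessory genes was not tested, and the 2 sets also differed in transcript length, with medians of 1312 and 674.5 bases.

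Ndufc1, a small subunit of the membrane arm, had normalised counts of 513 and 629 in NIC, 303, 367 and 419 in NIC-Prmt1, 399, 440.0 and 417 in NIC-Carm1, and 299.7 and 267 in NIC-Prmt6. Every library of the other groups lay below both NIC libraries, NIC-Prmt6 was lowest, and NIC-Prmt1 overlapped NIC-Carm1. It fell by 0.66 ± 0.16 in NIC-Prmt1 (adjusted p = 0.013; 0.105 without NIC replicate 2) on the log2 scale. Ndufb11, another membrane arm subunit and X-linked, had 3072 and 3617 in NIC, 1996, 2502 and 2615 in NIC-Prmt1, 2668, 2579 and 2726 in NIC-Carm1, and 1906 and 1847 in NIC-Prmt6. It was again highest in NIC, with no overlap with the PRMT libraries, and fell by 0.50 ± 0.12 in NIC-Prmt1 (adjusted p = 0.0142; 0.113 without NIC replicate 2) and by 0.83 ± 0.13 in NIC-Prmt6 (adjusted p = 0.0016). Ndufb8, also of the membrane arm, had 2229 and 2919 in NIC, 1449, 1815 and 1891 in NIC-Prmt1, 2155, 2089.8 and 2156 in NIC-Carm1, and 1524 and 1428 in NIC-Prmt6. The 2 NIC libraries differed from each other by more than NIC replicate 1 differed from NIC-Carm1, and the log2 fold change in NIC-Prmt1 was -0.58 ± 0.14 (adjusted p = 0.0129), with an adjusted p of 0.113 without NIC replicate 2.

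Ndufb9 of the membrane arm and Ndufa5 of the peripheral arm had the smallest adjusted p in NIC-Prmt6 after Ndufb11. Ndufb9 had 2128 and 2498 in NIC and 1274 and 1349 in NIC-Prmt6, a log2 fold change of -0.81 ± 0.13 (adjusted p = 0.00162). Ndufa5 had 541 and 554 in NIC, 464, 487 and 508 in NIC-Prmt1, 453, 476 and 508 in NIC-Carm1, and 312 and 354 in NIC-Prmt6. Here the PRMT groups differed: NIC-Prmt6 stood below all other libraries, by -0.72 ± 0.12 (adjusted p = 0.00204) against NIC, while NIC-Prmt1 was close to NIC (-0.17 ± 0.11 (adjusted p = 0.268)). At the other end, the core gene Ndufs1 and the accessory gene Ndufb10 were near the NIC level in both comparisons. Ndufs1, the large iron-sulfur subunit, had 1433 and 1556 in NIC, 1496, 1569 and 1601 in NIC-Prmt1, 1778, 1564 and 1709.7 in NIC-Carm1, and 1454 and 1404 in NIC-Prmt6. Its log2 fold change was -0.06 ± 0.10 (adjusted p = 0.639) in NIC-Prmt6 and 0.06 ± 0.09 (adjusted p = 0.65) in NIC-Prmt1, and the NIC range overlapped both groups. Both genes were picked after their values were seen.

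Complex II, succinate dehydrogenase, had the smallest median difference from NIC in each comparison. All 4 of its genes had median transcripts over 1 kb, and the part of length was not tested. Sdha, the flavin subunit, had normalised counts of 4866 and 5374 in NIC, 4567, 4938 and 5071 in NIC-Prmt1, 5442, 5107 and 5267 in NIC-Carm1, and 4363 and 4479 in NIC-Prmt6. Sdhb, the iron-sulfur subunit, had 1377 and 1513 in NIC, 1375, 1316 and 1779 in NIC-Prmt1, 1629.8, 1403 and 1531 in NIC-Carm1, and 1269.6 and 1213 in NIC-Prmt6. Both were lowest in NIC-Prmt6, just below the NIC libraries, but missed the threshold there, with log2 fold changes of -0.21 ± 0.09 (adjusted p = 0.108) and -0.22 ± 0.14 (adjusted p = 0.263). Sdhc, a membrane anchor, had 2055 and 2388 in NIC, 2038, 2123 and 2274 in NIC-Prmt1, 2029.7, 2035 and 2133 in NIC-Carm1, and 1647 and 1871 in NIC-Prmt6. It was the only complex II gene called against NIC, at -0.34 ± 0.11 (adjusted p = 0.0345) in NIC-Prmt6. The call held in 14 of 21 other settings and was lost, among others, in the fit on the 2 groups alone. Sdhd, the other membrane anchor, had 2003 and 2114 in NIC, 1649, 2218 and 2118 in NIC-Prmt1, 2521, 2529 and 2514 in NIC-Carm1, and 1823 and 1809.6 in NIC-Prmt6. The 3 NIC-Carm1 libraries were the highest of all for Sdhd, at 0.29 ± 0.12 (adjusted p = 0.121) against NIC, which missed the threshold. No complex II gene was called in NIC-Prmt1 (limma; 0 at an unadjusted p under 0.05, and 0 by edgeR and by DESeq2), nor in NIC-Carm1 (limma; 1 higher at an unadjusted p under 0.05, and 0 by both other tools). Counts of 0 or 1 among 4 genes cannot be told from the shares of all tested genes that were called. With 4 genes, the median was -0.21 in NIC-Prmt6, -0.05 in NIC-Prmt1 and 0.06 in NIC-Carm1.

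Complex III had 7 of 8 genes lower in NIC-Prmt6 (median -0.65) and 4 in NIC-Prmt1 (median -0.40). Uqcrfs1, which encodes the Rieske iron-sulfur protein, had 3016 and 3561 in NIC, 1669, 2251 and 2318 in NIC-Prmt1, 2713, 2559 and 2452 in NIC-Carm1, and 1763 and 1757 in NIC-Prmt6. Every PRMT library lay below NIC, by -0.67 ± 0.14 (adjusted p = 0.00755) in NIC-Prmt1 and -0.90 ± 0.15 (adjusted p = 0.00211) in NIC-Prmt6. Uqcr11, one of the smallest subunits, whose promoter is printed above, had 2476 and 3093 in NIC, 1531, 2025 and 2119.6 in NIC-Prmt1, 2309, 2137 and 2235 in NIC-Carm1, and 1446 and 1455 in NIC-Prmt6. The order was NIC, NIC-Carm1, NIC-Prmt1 and NIC-Prmt6, without overlap between neighbours, and the log2 fold change was -0.56 ± 0.14 (adjusted p = 0.0172) in NIC-Prmt1 and -0.93 ± 0.16 (adjusted p = 0.00197) in NIC-Prmt6. Uqcr10, also a very small subunit, was -0.60 ± 0.16 (adjusted p = 0.0213) and -0.92 ± 0.18 (adjusted p = 0.00376) in the same comparisons. Its calls held in 18 and 20 of 21 other settings, and both were lost with the near-identical libraries averaged. All 5 small subunits fell in NIC-Prmt6, with a median of -0.70, while the core-protein gene Uqcrc1 was the member of complex III that was not called there, at -0.28 ± 0.14 (adjusted p = 0.144). Its counts were 3533 and 4339.9 in NIC and 3239 and 3219 in NIC-Prmt6, which did not overlap. Its median transcript length was 1653 bases, against a median of 474.5 for the small subunits. The part of length in this difference was not tested.

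Complex IV, cytochrome c oxidase, held the only called rises against NIC, beside falls of most of its other genes. Among the 11 genes that are not tissue-restricted isoforms, 11 fell in NIC-Prmt6 (median -0.74) and 8 in NIC-Prmt1 (median -0.43). Cox7c (chr13:86044816-86046904, GRCm38), a small structural subunit, had 1856 and 2297 in NIC, 1039, 1211 and 1385 in NIC-Prmt1, 1527, 1488 and 1532 in NIC-Carm1, and 964 and 1008 in NIC-Prmt6. No library of another group reached the NIC range, and NIC-Prmt6 stood at 47.8% of NIC by the fitted fold change. Its log2 fold change was -1.07 ± 0.14 (adjusted p = 6.30e-04) in NIC-Prmt6, -0.78 ± 0.13 (adjusted p = 0.00299) in NIC-Prmt1 and -0.45 ± 0.13 (adjusted p = 0.0437) in NIC-Carm1. The first 2 calls held in all 21 other settings, the third in 10 of them. Cox6c, another small subunit, had 2734 and 2920.2 in NIC, 1951, 2272 and 2395 in NIC-Prmt1, 2170.5, 2206 and 2319 in NIC-Carm1, and 1618 and 1779.5 in NIC-Prmt6. It was lowest in NIC-Prmt6 (-0.74 ± 0.11 (adjusted p = 0.00124)). Cox6b1, which faces the intermembrane space and whose promoter is printed above, fell by 0.84 ± 0.15 in NIC-Prmt6 (adjusted p = 0.00225) and by 0.52 ± 0.13 in NIC-Prmt1 (adjusted p = 0.0175; 0.121 at the highest over the other settings).

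Among the common isoforms, Cox4i1, the regulatory subunit IV, had 9582 and 10793 in NIC, 6842, 7918 and 9492 in NIC-Prmt1, 8293, 7058 and 7235 in NIC-Carm1, and 6423 and 6613 in NIC-Prmt6. NIC-Prmt1 replicate 3 nearly reached NIC replicate 1, and the fall passed the threshold in NIC-Prmt6 (-0.64 ± 0.15 (adjusted p = 0.00907)) but not in NIC-Prmt1 (-0.34 ± 0.14 (adjusted p = 0.0842)). Cox8a, the common subunit VIII, had 6376 and 7119.7 in NIC, 4239, 5155 and 5323 in NIC-Prmt1 and 3851 and 3899 in NIC-Prmt6. The groups did not overlap, and it fell by 0.46 ± 0.11 (adjusted p = 0.0138) and 0.80 ± 0.12 (adjusted p = 0.0013). Cox7b, X-linked like Ndufb11, fell by 0.85 ± 0.15 in NIC-Prmt6 (adjusted p = 0.00206). Cox7a2, the common form of subunit VIIa, fell by 0.85 ± 0.17 (adjusted p = 0.00407) and Cox6a1, the common form of subunit VIa, by 0.59 ± 0.14 (adjusted p = 0.00836). In NIC-Prmt1 these 3 genes fell by 0.51 ± 0.13 (adjusted p = 0.0186), 0.59 ± 0.15 (adjusted p = 0.0181) and 0.43 ± 0.12 (adjusted p = 0.0264). In NIC-Prmt6 the calls of Cox8a and Cox7b held in all 21 other settings. Those of Cox4i1 and Cox6a1 held in 17 and that of Cox7a2 in 20, each lost with the near-identical libraries averaged. In NIC-Prmt1 the calls of Cox8a, Cox7b, Cox7a2 and Cox6a1 were lost there as well.

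Cox4i2 (chr2:152754173-152765037, GRCm38), the alternative isoform of subunit IV known from lung and from the response to low oxygen, rose. Its normalised counts were 29.3 and 24.7 in NIC, 90.2, 82.9 and 118 in NIC-Prmt1, 61.9, 55.9 and 56.2 in NIC-Carm1, and 114 and 101 in NIC-Prmt6. No PRMT library overlapped NIC, and the NIC-Carm1 libraries lay between NIC and the other 2 groups, which overlapped each other. The log2 fold change was 1.80 ± 0.23 (adjusted p = 0.00102) in NIC-Prmt1, 1.08 ± 0.23 (adjusted p = 0.0134) in NIC-Carm1 and 1.95 ± 0.25 (adjusted p = 5.00e-04) in NIC-Prmt6. The calls in NIC-Prmt1 and NIC-Prmt6 held in all 21 other settings; that in NIC-Carm1 was lost without NIC replicate 2 and with near-identical libraries averaged (highest adjusted p = 0.101). Per kilobase of transcript, Cox4i2 made up 0.236% to 0.315% of the summed Cox4i1 and Cox4i2 level in NIC, 1.07% to 1.34% in NIC-Prmt1, 0.767% to 0.813% in NIC-Carm1 and 1.55% to 1.80% in NIC-Prmt6. Cox4i1 thus remained the main isoform in every library. Ndufa4l2, a paralog of Ndufa4 outside the symbol rule, had 85 and 122 in NIC, 431, 288 and 416 in NIC-Prmt1, 122, 137 and 148 in NIC-Carm1, and 396 and 354 in NIC-Prmt6 and rose by 1.86 ± 0.22 (adjusted p = 7.95e-04) in NIC-Prmt1 and 1.87 ± 0.24 (adjusted p = 5.27e-04) in NIC-Prmt6. Both genes are also known from mural cells of vessels, and the pericyte markers described above were highest in the same 2 groups: Rgs5 had 616 and 712 in NIC, 2822, 2146 and 2065 in NIC-Prmt1, 1355, 1559 and 1613 in NIC-Carm1, and 2588 and 2615 in NIC-Prmt6. The part of these cells in the rise of Cox4i2 was not tested.

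Cox6b2, known mainly from testis, had 39.7 and 37.7 in NIC, 67.9, 83.9 and 95.1 in NIC-Prmt1, 46.2, 45.2 and 59.2 in NIC-Carm1, and 75.2 and 98.9 in NIC-Prmt6. All NIC-Prmt1 and NIC-Prmt6 libraries lay above all NIC and NIC-Carm1 libraries, and the rise was 1.06 ± 0.25 (adjusted p = 0.0121) in NIC-Prmt1 and 1.14 ± 0.27 (adjusted p = 0.0096) in NIC-Prmt6. The first missed the threshold without NIC replicate 2 (adjusted p = 0.0631) and the second with near-identical libraries averaged or without NIC-Prmt6 replicate 2 (highest adjusted p = 0.0929). Cox7a1, the form of subunit VIIa known from heart, muscle and brown fat, had 133 and 146 in NIC, 25.5, 108 and 62 in NIC-Prmt1, 137, 117 and 125 in NIC-Carm1, and 43.5 and 46.4 in NIC-Prmt6. The NIC-Prmt1 libraries spread over a wide range below NIC. By limma the fall passed the threshold in NIC-Prmt6 (-1.61 ± 0.50 (adjusted p = 0.03)), where the call held in 16 of 21 other settings. In NIC-Prmt1 it missed the threshold (-1.31 ± 0.46 (adjusted p = 0.0548)), but passed with DESeq2 and without NIC-Prmt1 replicate 2 (lowest adjusted p = 0.00651). Cox8b, the form of subunit VIII known from the same tissues, had 48.2 and 81.9 in NIC, 3.18, 38.3 and 20.7 in NIC-Prmt1, 145, 43.6 and 53.3 in NIC-Carm1, and 8.15 and 11.2 in NIC-Prmt6. NIC-Carm1 replicate 1 was the highest library, and the fall in NIC-Prmt6 was just past the threshold (-2.60 ± 0.92 (adjusted p = 0.0489)) and held in 10 of 21 other settings.

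The brown adipocyte gene Ucp1, for the uncoupling protein of brown fat mitochondria, had 40.6 and 18.2 in NIC, 12.7, 12.4 and 2.07 in NIC-Prmt1, 1034, 15.6 and 25.2 in NIC-Carm1, and 17.2 and 8.6 in NIC-Prmt6, so that NIC-Carm1 replicate 1 stood far above the rest. Cidea, another brown adipocyte gene, had 573, 37 and 36.9 in NIC-Carm1 and 58.6 and 75.4 in NIC. The 6 brown adipocyte markers summed to 51 to 72.9 CPM in NIC and 89.7 to 119.9 in NIC-Prmt1. In NIC-Carm1 they summed to 139 to 209 and in NIC-Prmt6 to 25.9 to 26.1. Of the 6, 1 was called lower and 1 higher in NIC-Prmt1 and in NIC-Carm1, and 2 lower in NIC-Prmt6. In NIC-Carm1 these were Dio2 (-1.60 ± 0.23 (adjusted p = 0.00277)) and Pdk4 (1.23 ± 0.16 (adjusted p = 0.00205)). Their median log2 fold change over the 6 was -0.31 in NIC-Prmt1, 1.06 in NIC-Carm1 and -0.88 in NIC-Prmt6. The 12 skeletal muscle markers summed to 19.2 and 23.7 CPM in NIC, 28.3, 74.2 and 86.1 in NIC-Prmt1, 31.5, 91.1 and 91.8 in NIC-Carm1 and 23.6 and 25.2 in NIC-Prmt6, with 2 called higher in NIC-Prmt1, 2 in NIC-Carm1, and 1 higher and 1 lower in NIC-Prmt6. The counts of called brown adipocyte and muscle markers were too small to set apart from the shares of all tested genes given above. Of the brown adipocyte markers, Elovl3 was at 0 in NIC-Carm1 replicate 2 and NIC-Prmt6 replicate 1. Without NIC-Carm1 replicate 1 the log2 fold change of Cox8b in NIC-Carm1 turned from 0.15 to -0.38, not called in either case. Cox6a2, the heart and muscle form of subunit VIa, had 6.61 and 2.6 in NIC, 3.18, 11.4 and 13.4 in NIC-Prmt1, 9.01, 8.22 and 24.2 in NIC-Carm1, and 5.43 and 0 in NIC-Prmt6. It was not called in any comparison with NIC. The part of brown fat or muscle cells in the levels of Cox8b, Cox7a1 and Cox6a2 was not tested.

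**Figure D2:**
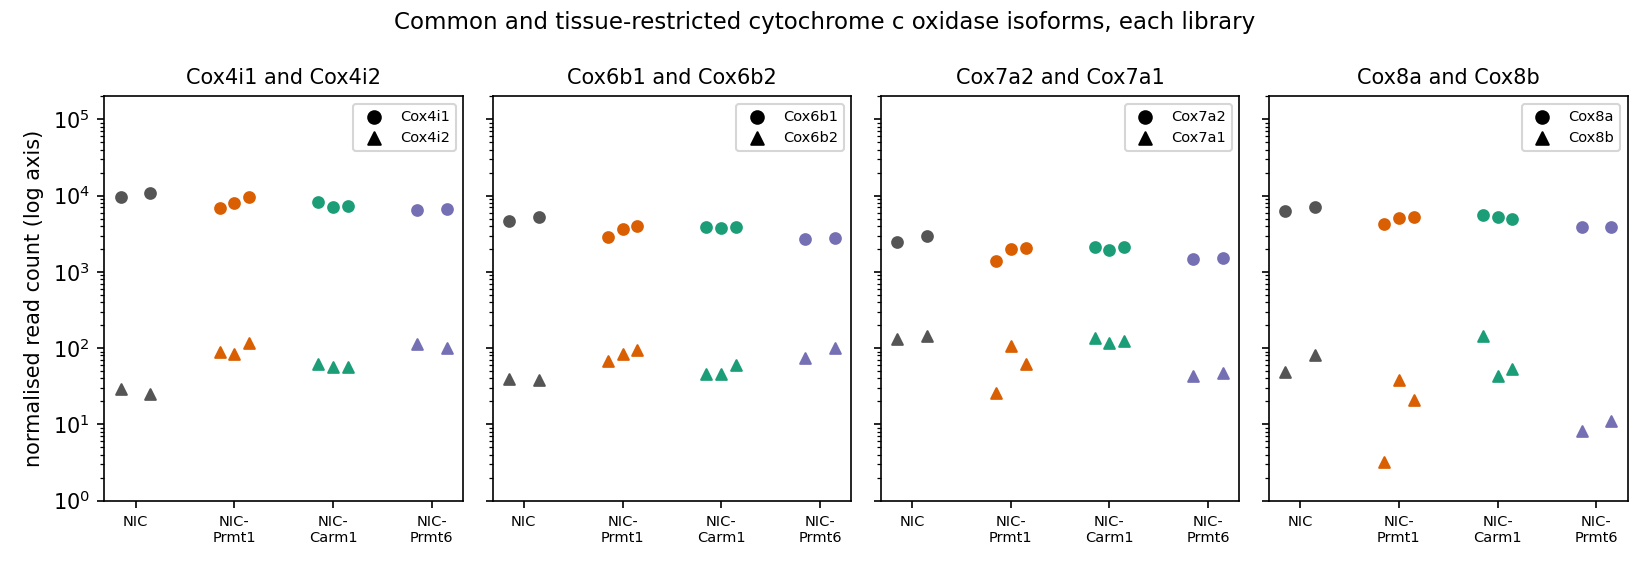
Normalised read count of 4 pairs of cytochrome c oxidase isoforms on a log axis (vertical), by group (horizontal), with 1 point a library, circles for the common isoform and triangles for the tissue-restricted one. Cox4i2 and Cox6b2 rise in NIC-Prmt1 and NIC-Prmt6, Cox6b1 falls in both, Cox4i1 falls in NIC-Prmt6 and misses the threshold in NIC-Prmt1, and Cox8b spreads from 3.18 to 145 between libraries.

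Complex V, the ATP synthase, had 16 of 17 genes lower in NIC-Prmt6 (median -0.70) and 11 in NIC-Prmt1 (median -0.43). Atp5j2, subunit f of the membrane part, had 3047 and 3648 in NIC, 1548, 2120.2 and 2286 in NIC-Prmt1, 2398, 2235 and 2449 in NIC-Carm1, and 1502 and 1590.3 in NIC-Prmt6. No library overlapped NIC, and NIC-Prmt6 stood at 46.4% of NIC by the fitted fold change. Its log2 fold change of -1.11 ± 0.17 (adjusted p = 0.00121) in NIC-Prmt6 held in all 21 other settings, and that of -0.77 ± 0.15 (adjusted p = 0.00636) in NIC-Prmt1 was lost without NIC replicate 2 (adjusted p = 0.0580). The 3 genes Atp5g1, Atp5g2 and Atp5g3 all encode subunit c of the rotating ring, and all 3 fell in both comparisons. Atp5g2, whose promoter is printed above, had 8108 and 9056 in NIC, 4624, 5925 and 6389.7 in NIC-Prmt1, 6042, 6392 and 6517 in NIC-Carm1, and 4491 and 4543 in NIC-Prmt6. The log2 fold change was -0.62 ± 0.13 (adjusted p = 0.00788) in NIC-Prmt1 and -0.92 ± 0.14 (adjusted p = 0.00129) in NIC-Prmt6, with no overlap with NIC.

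Atp5f1, subunit b of the stator, had 4721 and 4908 in NIC, 2762, 3514 and 3481 in NIC-Prmt1, 4318, 3703 and 3719 in NIC-Carm1, and 2993 and 2950.1 in NIC-Prmt6, and fell by 0.57 ± 0.12 in NIC-Prmt1 (adjusted p = 0.00737; 0.0507 without NIC replicate 2). Atp5j, coupling factor 6, had 2586 and 2755 in NIC, 1785, 2023 and 2097 in NIC-Prmt1, 2008, 2000.2 and 2185 in NIC-Carm1, and 1628 and 1743 in NIC-Prmt6. Here the 2 NIC libraries were close to each other and above all others, and the gene fell by 0.66 ± 0.10 in NIC-Prmt6 (adjusted p = 0.00144). All 5 genes of the F1 part, the catalytic head with its central stalk, fell in NIC-Prmt6, with a median of -0.60. They were Atp5a1, Atp5b, Atp5c1, Atp5d and Atp5e, and 3 of them fell in NIC-Prmt1. All 7 genes of the stator stalk and of the membrane part outside the subunit c ring fell in NIC-Prmt6, with a median of -0.70. Atp5s, which is not a core subunit, was the gene of this group that was not called in NIC-Prmt6 (-0.12 ± 0.23 (adjusted p = 0.711)), and Atp5sl was called at -0.39 ± 0.13 (adjusted p = 0.0447).

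Levels between genes were compared only per kilobase of transcript, as means over the 10 libraries. Atp5b, the catalytic beta subunit, was highest of complex V at 13738 normalised counts per kilobase, and Cox4i1 was highest of complex IV at 10629. Uqcrh, the hinge protein of complex III, had 7357 and Ndufa4 had 5810.4, while the highest gene of complex II, Sdhd, had 1730.04. At the low end stood Cox6a2 with 12.4, Atp5s with 71.8 and Ndufb2 with 298, each the lowest of its complex. Sdhc and Uqcrfs1, the lowest of complexes II and III, had 1033 and 1765. The annotated lengths are those of the genome annotation and may not be the transcripts made in these cells.

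Summed over each complex, the order of libraries was similar for complexes I, III, IV and V. Complex I reached 1929 and 2213 CPM in NIC, 1642, 1892 and 2007 in NIC-Prmt1, 2039, 2026 and 2070.4 in NIC-Carm1 and 1497 and 1489.5 in NIC-Prmt6. NIC-Prmt6 was below every other library, whereas NIC-Prmt1 replicate 3 and all of NIC-Carm1 lay within the NIC range on this scale. As sums of normalised counts, the scale of the tests, complex I had 53286 and 62122 in NIC, 41447, 47458 and 52555 in NIC-Prmt1, 52332, 48704 and 49755 in NIC-Carm1 and 38720.1 and 38768 in NIC-Prmt6, and there every PRMT library lay below both NIC libraries. Complex V reached 3845 and 4188 CPM in NIC, 2818, 3393 and 3476 in NIC-Prmt1, 3745, 3575 and 3693 in NIC-Carm1 and 2720.4 and 2770.0 in NIC-Prmt6. Here every PRMT library was below both NIC libraries, on both scales. Complex II had 373 and 406 CPM in NIC, 381, 422 and 429 in NIC-Prmt1, 453, 461 and 476 in NIC-Carm1 and 352 and 360.1 in NIC-Prmt6. In CPM all of NIC-Carm1 and 2 of the 3 NIC-Prmt1 libraries were above NIC. As normalised counts, with 10301 and 11389 in NIC, 9628, 10596 and 11241 in NIC-Prmt1 and 11623, 11074 and 11444 in NIC-Carm1, both groups overlapped NIC. All 80 genes together took 0.859% and 0.954% of the recovered reads in NIC, 0.674%, 0.796% and 0.830% in NIC-Prmt1, 0.862%, 0.840% and 0.860% in NIC-Carm1, and 0.632% and 0.638% in NIC-Prmt6. These shares depend on the other transcripts of a library: in NIC-Carm1 replicate 1, 7 milk protein genes summed to 39480 CPM, against 1157 to 6229.8 in the other 9 libraries.

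**Figure D3:**
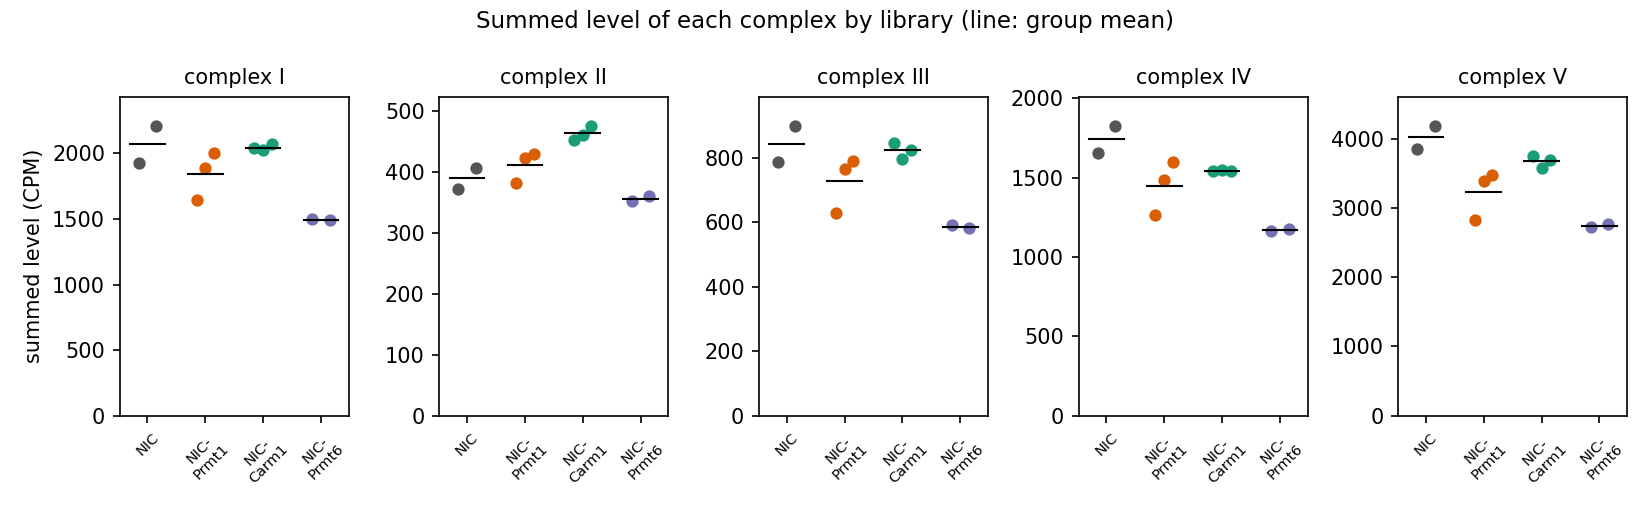
Summed level in CPM (vertical axis, from 0) of the genes of each complex in each library, by group (horizontal axis), with 1 point a library and a line at the group mean. The 2 NIC-Prmt6 libraries are lowest for every complex, and the NIC-Prmt1 libraries spread the most, with replicate 1 lowest of that group.

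The libraries of NIC-Prmt1 were not alike. Against the mean of NIC, the median log2 difference over the 80 genes was -0.57 in replicate 1, -0.36 in replicate 2 and -0.20 in replicate 3. It was -0.64 and -0.63 in NIC-Prmt6, and -0.19, -0.30 and -0.25 in NIC-Carm1. The NIC libraries themselves lay at -0.10 and 0.10, with 75 of 80 genes lower in replicate 1 than in replicate 2. NIC-Prmt1 replicate 1 also had the highest sum of skin keratinocyte markers, 1012 CPM against 1.75 to 82.9 in the other 9 libraries, and the highest sums of pericyte and endothelial markers. The part of these markers in its low chain levels was not tested. Without that library, the calls in NIC-Prmt1 against NIC numbered 28.

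In NIC-Carm1 against NIC, few chain genes passed the threshold although most pointed down. Of the 75 genes that are not tissue-restricted isoforms, 66 had a log2 fold change below 0, and 7 were called lower, a share near the 9.36% of all tested genes that were lower in this comparison. The 7 were Ndufa6 of complex I, Cox5a, Cox6c and Cox7c of complex IV, and Atp5e, Atp5g2 and Atp5j of complex V. Atp5e, subunit epsilon, had 1920.1 and 2296 in NIC, 1366, 1467 and 1896 in NIC-Prmt1, 1528, 1267 and 1430.4 in NIC-Carm1, and 1198 and 1346 in NIC-Prmt6 and was -0.58 ± 0.15 against NIC (adjusted p = 0.029). Cox5a, a subunit that binds regulators of the complex on the matrix side, had 1820.0 and 1885 in NIC, 1509, 1459 and 1701 in NIC-Prmt1, 1602, 1393 and 1292 in NIC-Carm1, and 1227 and 1233 in NIC-Prmt6. NIC-Carm1 replicate 1 lay nearest to NIC, and the log2 fold change was -0.38 ± 0.11 (adjusted p = 0.0411). Ndufa6, an accessory subunit of the LYR family, was -0.42 ± 0.13 (adjusted p = 0.0492), Atp5j was -0.37 ± 0.10 (adjusted p = 0.028) and Atp5g2 was -0.44 ± 0.13 (adjusted p = 0.0455). No gene of complex III was called (limma; 2 lower at an unadjusted p under 0.05, and 0 by edgeR and by DESeq2). The 8 calls became 17 with DESeq2, 5 with edgeR, 5 with TMM scaling, 3 with upper-quartile scaling, 0 without NIC replicate 2 or with the near-identical pairs averaged, 1 without NIC replicate 1, 1 without NIC-Carm1 replicate 2 or replicate 3, 1 without either NIC-Prmt6 library, 28, 4 and 15 without NIC-Prmt1 replicate 1, 2 and 3, and 12 without NIC-Carm1 replicate 1.

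Compared directly, NIC-Carm1 had higher levels than NIC-Prmt6 for 47 of the 80 genes and lower levels for 2, where 18.4% of tested genes were higher and 20.9% lower (median of the 80 genes 0.40). The 47 were 20 of complex I, 2 of complex II, 5 of complex III, 9 of complex IV and 11 of complex V, and the 2 were Cox4i2 and Cox6b2. Ndufa9, an accessory subunit near the quinone site, had the smallest adjusted p of complex I. Its counts were 1689 and 1890.4 in NIC, 1377, 1520.5 and 1659 in NIC-Prmt1, 1817, 1707 and 1924 in NIC-Carm1, and 1222 and 1199.8 in NIC-Prmt6. NIC-Prmt6 stood apart from all other libraries, while NIC-Carm1 overlapped NIC, and the log2 fold change between them was 0.58 ± 0.10 (adjusted p = 0.00231). Sdhd of complex II (0.47 ± 0.12 (adjusted p = 0.0117)), Uqcr11 of complex III (0.62 ± 0.14 (adjusted p = 0.00825)), Cox7c of complex IV (0.62 ± 0.13 (adjusted p = 0.00509)) and Atp5sl among the complex V names (0.50 ± 0.12 (adjusted p = 0.0107)) had the smallest adjusted p of theirs. Both groups hold a near-identical pair: 4 calls remained in number without NIC-Prmt6 replicate 1, 5 without NIC-Prmt6 replicate 2, and 0 with the pairs averaged.

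Between NIC-Prmt1 and NIC-Prmt6, 3.75% of the 80 genes were called higher in NIC-Prmt1, near the share of all tested genes. The 75 genes that are not tissue-restricted isoforms all had log2 fold changes above 0, the lowest 0.08. The 3 called genes were higher in NIC-Prmt1 and belonged to complex I, and no gene was lower, where 2.54% of tested genes were higher and 4.94% lower (limma; 25 higher and 0 lower at an unadjusted p under 0.05, 3 higher by edgeR, 9 by DESeq2, and 0 lower by both). They were Ndufa5 (0.55 ± 0.11 (adjusted p = 0.0193)), Ndufv3, an accessory subunit beside the flavin site (0.43 ± 0.10 (adjusted p = 0.0342)), and Ndufv2, a core iron-sulfur subunit (0.39 ± 0.10 (adjusted p = 0.0467)). Ndufv2 had 1444 and 1586 in NIC, 1199.8, 1374 and 1467 in NIC-Prmt1, 1501, 1443 and 1543 in NIC-Carm1, and 1024 and 1025 in NIC-Prmt6. NIC-Prmt6 was below every other library, and NIC-Prmt1 overlapped NIC. The median over the 80 genes was 0.28. Without NIC-Prmt1 replicate 1 there were 30 calls, without NIC-Carm1 replicate 1 there were 6, without NIC-Prmt1 replicate 2 or without NIC-Carm1 replicate 2 or 3 there was 1, and without NIC-Prmt1 replicate 3 or either NIC-Prmt6 library there were 0. The replicate block also gave 0, upper-quartile scaling gave 7, and the fit on the 2 groups alone gave 1.

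Between NIC-Prmt1 and NIC-Carm1, 2 genes were higher in NIC-Prmt1 and 1 was lower, where 14.9% of tested genes were higher and 11.8% lower (median of the 80 genes -0.14). Cox4i2 (0.72 ± 0.20 (adjusted p = 0.0275)) and Cox6b2 (0.70 ± 0.22 (adjusted p = 0.0414)) were the higher genes, and Sdhd (-0.35 ± 0.11 (adjusted p = 0.0358)) was the lower one. The NIC-Prmt1 and NIC-Carm1 libraries did not overlap for Cox4i2, Cox6b2 or Sdhd. The 3 calls fell to 1 without NIC-Prmt1 replicate 1 and to 0 without NIC-Carm1 replicate 2 or 3, without either NIC-Prmt6 library, in the fit on the 2 groups alone, or with the near-identical libraries averaged.

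Transcripts of the chain genes are short: 53 of the 79 genes with a length had a median transcript under 1 kb (protein-coding transcripts, GENCODE annotation of GRCm38). Other short genes were lower too. In NIC-Prmt6, the 1052 other tested genes under 1 kb had a median log2 fold change of -0.41 and 36.8% of them fell, while the 53 chain genes had -0.70 and 47 of them fell. From 1 to 2 kb the medians were -0.17 for 3521 other genes and -0.56 for 20 chain genes, and from 2 to 4 kb they were 0.02 for 6147 other genes and -0.42 for 6 chain genes. At 4 kb and over, which held no chain gene, the 3601 other genes had a median of 0.20. In NIC-Prmt1 the under 1 kb medians were -0.19 for other genes and -0.41 for chain genes, and in NIC-Carm1 -0.15 and -0.28. In each length class that held chain genes, their median was below that of the other genes in all 3 comparisons. The 6 chain genes from 2 to 4 kb were few and unlike. Their mean normalised counts in NIC and NIC-Prmt6 were 998 and 461 for Ndufb2, 3998 and 2060 for Atp5g1, and 22416 and 15442 for Atp5a1. They were 1577 and 1268 for Ndufa10, 5120 and 4421 for Sdha, and 1495 and 1429 for Ndufs1. Annotated lengths may not be those of the transcripts made in these cells. The part of transcript length, or of RNA quality that can act through it, in the lower chain levels was not tested further.

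**Figure D4:**
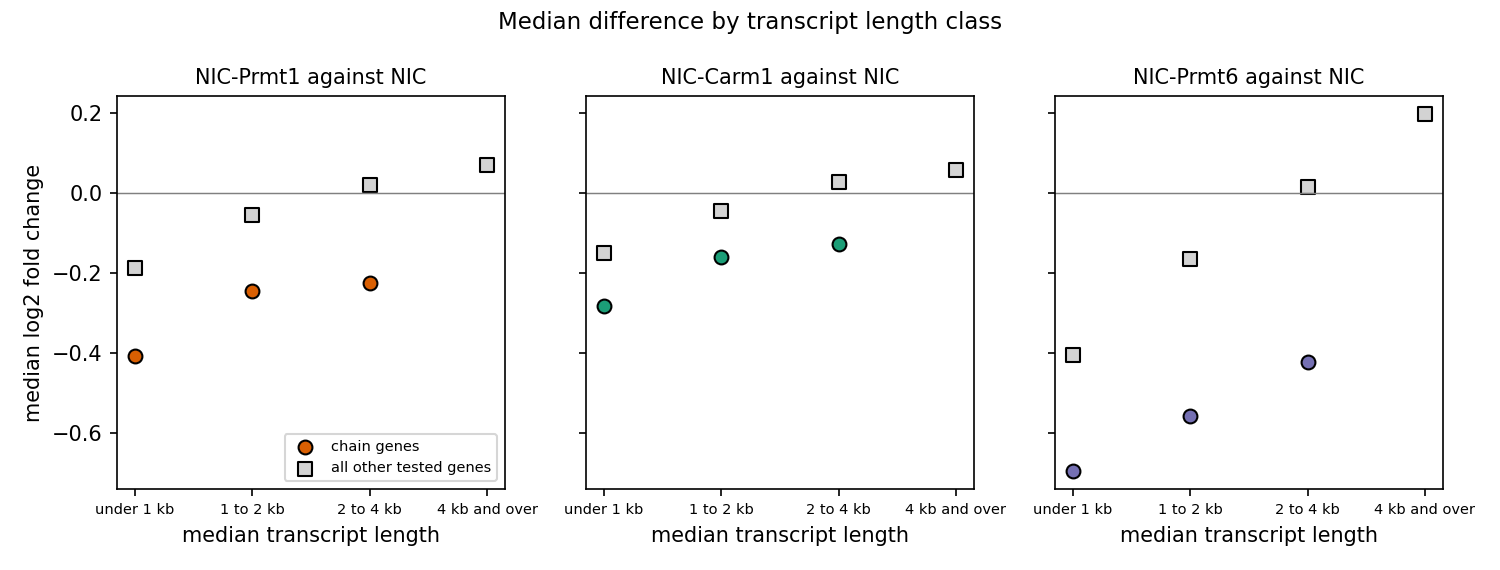
Median log2 fold change against NIC (vertical axis) of the chain genes (coloured circles) and of all other tested genes (grey squares) in 4 classes of median transcript length (horizontal axis), in NIC-Prmt1, NIC-Carm1 and NIC-Prmt6. Both sets are lower for short transcripts, and the circles lie below the squares in each class that has both.

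Genes that build or serve the chain were followed as lists, beside the share of all tested genes that fell (17.8% in NIC-Prmt6, 14.4% in NIC-Prmt1 and 9.36% in NIC-Carm1). Of 74 mitochondrial ribosomal protein genes, which translate the mitochondrially encoded subunits, 45 fell in NIC-Prmt6 (median -0.50), 25 in NIC-Prmt1 (median -0.32) and 4 in NIC-Carm1 (median -0.15), which is 60.8%, 33.8% and 5.41% of the list. The share in NIC-Carm1 was below that of all tested genes. Mrpl17 was -0.68 ± 0.11 (adjusted p = 0.00137) in NIC-Prmt6, -0.52 ± 0.10 (adjusted p = 0.00481) in NIC-Prmt1 and -0.37 ± 0.10 (adjusted p = 0.0292) in NIC-Carm1, and Mrpl30 was -0.81 ± 0.14 (adjusted p = 0.00192) in NIC-Prmt6. Of 13 genes of import and the outer membrane, 9 fell in NIC-Prmt6, 7 in NIC-Prmt1 and 3 in NIC-Carm1. They included the mitochondrial chaperone Hspa9 (-0.53 ± 0.09 (adjusted p = 0.00239) in NIC-Prmt6, -0.73 ± 0.09 (adjusted p = 0.0012) in NIC-Carm1) and the co-chaperone Hspe1 (-0.92 ± 0.18 (adjusted p = 0.00356) in NIC-Prmt6). Of 13 genes of the tricarboxylic acid cycle, 7 fell and 1 rose in NIC-Prmt6, and 2 fell in NIC-Prmt1, the latter 15.4% and near the share of all tested genes. Suclg2 (-0.49 ± 0.11 (adjusted p = 0.00749)), a subunit of succinate-CoA ligase, and Idh3a (-0.45 ± 0.12 (adjusted p = 0.0132)), a subunit of isocitrate dehydrogenase, had the smallest adjusted p in NIC-Prmt6.

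Assembly factors help to build the complexes and are not part of them. In NIC-Prmt6, 4 of 13 complex I factors, 3 of 10 factors of complexes II and III, 7 of 17 complex IV factors and 1 of 3 ATP synthase factors fell, where 17.8% of all tested genes did. In NIC-Prmt1, 1 of 13 complex I factors and 2 of 17 complex IV factors fell, and Foxred1 of complex I and Sdhaf1 of complex II rose. These shares were below the 14.4% of tested genes that fell and the 15.2% that rose in NIC-Prmt1. Acad9, a complex I assembly factor related to acyl-CoA dehydrogenases, was -1.33 ± 0.23 (adjusted p = 0.00208) in NIC-Prmt6 and -0.81 ± 0.21 (adjusted p = 0.0173) in NIC-Prmt1. Nubpl, which delivers iron-sulfur clusters to complex I, was -0.98 ± 0.21 (adjusted p = 0.00655) in NIC-Prmt6, and the copper chaperone Cox17 was -0.74 ± 0.19 (adjusted p = 0.0125). The inner membrane protein Tmem70, needed for ATP synthase assembly, was -0.48 ± 0.15 (adjusted p = 0.0348). In NIC-Carm1, 6.65% of all tested genes were higher, and none of the 10 factors of complexes II and III was. Counts in the other lists were too small to set them apart from that share. There, 1 of 13 complex I factors, 2 of 17 complex IV factors and 1 of 3 ATP synthase factors were higher (limma). They were the complex I factor Ndufaf7 (0.58 ± 0.13 (adjusted p = 0.0165)), Cox10 (0.54 ± 0.16 (adjusted p = 0.0443)) and Cox15 (0.47 ± 0.12 (adjusted p = 0.0271)), both enzymes of heme A synthesis, and Atpaf1 (0.67 ± 0.16 (adjusted p = 0.0206)), an ATP synthase factor.

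Of 14 tested regulators of mitochondrial gene expression, 4 fell and 3 rose in NIC-Prmt6, where 17.8% of all tested genes fell and 19.0% rose. In NIC-Prmt1 2 fell and 2 rose, where 14.4% and 15.2% did. Apart from the falls in NIC-Prmt6 (28.6%), these shares were near those of all tested genes. In NIC-Prmt6 the 14 log2 fold changes ranged from -1.30 to 1.80, with a median of 0.03. Ppargc1b and Pprc1, named next, are among the 3 that rose there. Ppargc1b, a coactivator of mitochondrial genes, had 69.9 and 58.5 in NIC, 244, 142 and 191 in NIC-Prmt1, 262, 138 and 134 in NIC-Carm1, and 233 and 218 in NIC-Prmt6. All PRMT libraries lay above NIC, by 1.54 ± 0.31 (adjusted p = 0.0066) in NIC-Prmt1, 1.39 ± 0.31 (adjusted p = 0.0169) in NIC-Carm1 and 1.80 ± 0.34 (adjusted p = 0.00341) in NIC-Prmt6. Pprc1, a related coactivator, was 0.95 ± 0.15 (adjusted p = 0.0015) in NIC-Prmt6, and Tfb2m, a mitochondrial transcription factor, was -0.57 ± 0.15 (adjusted p = 0.0172) in NIC-Prmt1 and -0.53 ± 0.15 (adjusted p = 0.0363) in NIC-Carm1. Outside the symbol rule, the chain genes and carriers gave 5 lower and 1 higher of 7 in NIC-Prmt6, and 3 lower and 1 higher in NIC-Prmt1. Ndufab1, the acyl carrier subunit of complex I, was -0.83 ± 0.13 (adjusted p = 0.00156) in NIC-Prmt6, -0.58 ± 0.12 (adjusted p = 0.008) in NIC-Prmt1 and -0.52 ± 0.12 (adjusted p = 0.0198) in NIC-Carm1, and cytochrome c (Cycs) was -0.46 ± 0.13 (adjusted p = 0.0443) in NIC-Carm1.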

How the data were processed

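The submitters' processing notes name TopHat2 2.0.10, HTSeq 0.6.0, DESeq 1.18.0 and the build mm10. Neither the annotation nor the strand setting is stated there; overlapping genes and members of families with processed pseudogenes (Nduf, Cox, Atp5) are uncertain as single genes. The authors deposited a normalised signal per gene and library. In every column 100% of values were whole multiples of 1 step within 0.01, which recovered the reads per gene; every listed gene had at least 10 reads in its highest library.

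The test was limma-trend (limma 3.58.1, R 4.3.3) on log2(value + 1) with 4 group means over 10 libraries (6 residual degrees of freedom), for the 15694 genes that reached 10 in 2 or more libraries, Benjamini-Hochberg adjusted over all of them at 0.05. It was tested on simulated data. Every adjusted p is from limma, fold changes are on the log2(value + 1) scale and followed by ± standard error. CPM were computed from the recovered reads. Alternatives were edgeR 4.0.16, DESeq2 1.42.0 (both on recovered reads), other scalings, filters and pseudocounts, a replicate block, the compared groups alone, averaged near-identical libraries, and each library left out. Named genes were, per comparison with NIC, the 3 called genes of each complex with the smallest adjusted p, all Sdh genes, the Cox isoform pairs, the top called gene per complex between PRMT groups, the 2 top genes of each list, and the extremes per kilobase; others are named as examples. The members and lists were chosen with earlier results of these data known.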

Additional observations from a re-analysis of the deposited data

How the results depend on the processing

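The direction of the median over the 80 genes was the same in all 21 other settings of each of the 6 comparisons; the median in NIC-Prmt1 against NIC moved most, to -0.49 without NIC replicate 1. Counts of called genes over the settings that leave out 1 library ranged from 0 to 28 in NIC-Carm1 against NIC (8 in the main fit), 2 to 48 in NIC-Prmt1 against NIC (39), 37 to 69 in NIC-Prmt6 against NIC (67), 4 to 55 in NIC-Carm1 against NIC-Prmt6 (49), 0 to 4 in NIC-Prmt1 against NIC-Carm1 (3) and 0 to 30 in NIC-Prmt1 against NIC-Prmt6 (3). With near-identical libraries averaged they were 0, 13, 21, 0, 0 and 0 in that order. The fit on the 2 groups alone gave 9 in NIC-Prmt1 against NIC, 0 in NIC-Prmt1 against NIC-Carm1 and 1 in NIC-Prmt1 against NIC-Prmt6. NIC-Carm1 against NIC gave 5 with edgeR, 17 with DESeq2, 5 with TMM and 3 with upper-quartile scaling, and NIC-Prmt1 against NIC-Prmt6 gave 9 with DESeq2 and 7 with upper-quartile scaling. Where a group was left with 1 library, that library was assumed to vary like the others. The cause of these shifts was not tested beyond the smaller number of samples.

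Same-numbered libraries did not deviate together from their group means (correlations of -0.13 to 0.10), so the numbers gave no sign of a pairing. The check cannot exclude one. In groups of 2 libraries the deviations mirror each other, and the near-identical pairs differ little. With the replicate block, the counts were 34 in NIC-Prmt1 against NIC, 9 in NIC-Carm1 against NIC, 65 in NIC-Prmt6 against NIC, 33 in NIC-Carm1 against NIC-Prmt6, 3 in NIC-Prmt1 against NIC-Carm1 and 0 in NIC-Prmt1 against NIC-Prmt6.

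Of 54 called values of named chain genes, 16 kept their call in every setting. Only uncalled values changed sign. In NIC-Prmt1 against NIC, Sdhb (0.03) was -0.0374 with the replicate block and -0.10 to 0.12 with a library left out, Sdhc (-0.05) was -0.16 to 0.0601 and Sdhd (-0.06) was -0.14 to 0.0744. In NIC-Carm1 against NIC, leaving out a library gave -0.38 to 0.52 for Cox8b (0.15), -0.0280 to 0.12 for Sdha (0.04) and -0.21 to 0.0069 for Sdhc (-0.10). In NIC-Prmt6 against NIC it gave -2.39 to 0.30 for Cox6a2 (-1.05). Low counts limit Cox6a2, whose values reached 24.2 at most, and Cox8b, with 3.18 to 38.3 in NIC-Prmt1 and 8.15 and 11.2 in NIC-Prmt6; among the settings that ended the call of Cox8b in NIC-Prmt6 were a pseudocount of 0.5 and a minimum value of 50.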
